A study of Mus musculus with 30 samples.

Results

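Branched-chain amino acid catabolism was followed through 10 genes, Bcat2, Bckdha, Bckdhb, Dbt, Ppm1k, Ivd, Mccc1, Mccc2, Hibch and Hibadh, in hearts of mice with the p.S55L mutation of CHCHD10, a mitochondrial protein, and of wild-type (WT) mice. The genes were found by matching Ensembl identifiers to these symbols, and all 10 were present among the 78258 genes counted in the postpartum study and the 56691 genes counted in the diet study. All 10 had enough reads to be tested in both studies. The postpartum study held 4 groups: WT naive and S55L naive mice, aged to 100 days, and WT PP and S55L PP mice, bred at 65 days and killed on postpartum (PP) day 0. The diet study held only S55L mice on postpartum day 0, and differed in what was fed during breeding: the control diet, or EH301, a combination of nicotinamide riboside and pterostilbene. The labels give no diet for the first study, and no sex or strain for either. They also do not state that each library came from a separate mouse, so every p-value measures the spread between these libraries. Gene counts do not read a point mutation, so the genotype labels were not checked here.

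Leucine, isoleucine and valine share the first steps of their breakdown. The mitochondrial transaminase BCAT2 turns them into ketoacids, and the branched-chain ketoacid dehydrogenase, built from BCKDHA, BCKDHB, DBT and DLD, then commits the carbon to oxidation. A kinase, BCKDK, switches this complex off by phosphorylation and a phosphatase, PPM1K, switches it on again, after which each amino acid follows its own route through the mitochondrial matrix. In the heart this pathway is one of the smaller sources of fuel, and its flux is set largely by the phosphorylation of the dehydrogenase.

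Promoter sequences are shown for 4 genes that represent the patterns described below: Ppm1k and Ivd, which fell in S55L hearts, Hibch, which rose, and Hibadh, which passed the test in neither direction. RefSeq promoters of build GRCm38.p6 were matched for 9 of the 10 genes, of which Bcat2 and Bckdhb had 2 each, giving 11 promoters. Each sequence below is the 250 bases before the annotated transcription start, read 5' to 3' on the gene's own strand. Capitals mark every match, on either strand, to a CCAAT box (CCAAT, or ATTGG on the other strand) or to a box bound by Kruppel-like and Sp factors (GGGNGGGG, or CCCCNCCC on the other strand).
Ppm1k (chr6:57535488-57535737, minus strand): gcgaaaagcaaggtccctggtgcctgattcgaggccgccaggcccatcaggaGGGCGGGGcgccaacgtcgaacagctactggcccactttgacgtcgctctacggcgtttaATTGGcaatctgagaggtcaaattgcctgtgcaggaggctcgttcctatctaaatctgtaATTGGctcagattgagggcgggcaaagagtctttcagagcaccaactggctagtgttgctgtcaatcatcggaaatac
Ivd (chr2:118861744-118861993, plus strand): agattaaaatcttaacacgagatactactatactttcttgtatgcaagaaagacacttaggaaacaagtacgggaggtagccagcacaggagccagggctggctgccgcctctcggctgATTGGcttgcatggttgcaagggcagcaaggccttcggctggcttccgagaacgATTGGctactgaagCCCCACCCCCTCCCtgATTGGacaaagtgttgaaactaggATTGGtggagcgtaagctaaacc
Hibch (chr1:52844788-52845037, plus strand): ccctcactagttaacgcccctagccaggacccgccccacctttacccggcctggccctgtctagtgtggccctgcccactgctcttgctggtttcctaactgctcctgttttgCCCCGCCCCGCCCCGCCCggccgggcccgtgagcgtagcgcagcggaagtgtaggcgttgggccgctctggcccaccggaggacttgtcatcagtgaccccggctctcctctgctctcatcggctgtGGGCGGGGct
Hibadh (chr6:52640301-52640550, minus strand): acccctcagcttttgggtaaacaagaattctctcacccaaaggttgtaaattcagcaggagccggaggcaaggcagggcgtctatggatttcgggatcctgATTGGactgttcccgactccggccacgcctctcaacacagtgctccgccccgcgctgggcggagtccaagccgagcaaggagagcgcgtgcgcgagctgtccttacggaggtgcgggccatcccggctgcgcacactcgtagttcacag

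The Ivd promoter held 4 CCAAT boxes, those of Mccc1 and Mccc2 held 3 each, the Ppm1k promoter and 1 of the 2 Bckdhb promoters held 2 each, and that of Hibadh held 1. None was found in the promoters of Hibch, Bckdha and Bcat2 or in the other Bckdhb promoter, so that genes that fell were found with and without the box. Among all 32851 RefSeq promoters of the same length, 33.8% held at least 1 CCAAT box and 2.79% held 3 or more, and 6 of the 11 promoters held at least 1. The Hibch promoter held 4 matches to GGGNGGGG, of which 3 overlap one another, and matches occurred in 5 of the 11 promoters and in 30.8% of all promoters. The core of the amino acid response element, TGATGCAA, and the core site of estrogen-related receptors, AAGGTCA, occurred in none of the 11 promoters and in 0.791% and 4.08% of all promoters. The CCAAT box was added to the search after the sequences were seen, and a match describes letters only.

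Each of the 6 groups was deposited as 5 columns of read counts. WT PP columns 1 and 2 were identical, as were S55L PP columns 1 and 2, and each such pair was used as 1 library, named by the number 1. A single library was deposited under both diets and was left out, so that n was 5 for each naive group and 4 for every other group. Reads on genes ranged from 1418715 to 5131316 per library in the postpartum study and from 466651 to 3048461 in the diet study. S55L naive libraries held 3369420 to 5131316 such reads, all above the 1418715 to 2307283 of WT naive libraries. S55L PP libraries held 2755500 to 4157372 and WT PP libraries 1897249 to 2949993, which overlapped. S55L libraries of the postpartum study had a higher share of reads on genes (66.3% to 69.2%) than WT libraries (58.3% to 61.6%). Mitochondrial transcripts took a lower share of the reads on genes in S55L libraries, 13.9% to 15.2% (naive) and 9.52% to 15.5% (PP), than in WT libraries, 19.1% to 23.7% (naive) and 16.8% to 24.6% (PP). Reads that mapped to several places were also fewer, at most 21.2% in S55L and at least 24.7% in WT libraries. The part of these shares in the differences between genotypes was not tested. A set of 3 libraries stood apart in having the most reads outside genes: WT naive 1, WT PP 1 and S55L PP 1, with 10.1%, 9.90% and 9.62% of reads against 5.65% to 8.18% in the other libraries. In the diet study, control diet 1 and EH301 diet 8 were the shallowest, with 466651 and 1141997 reads. Levels are given as CPM, reads scaled to a common library size, and compare libraries, not genes.

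The first comparison asks how the pathway differed between S55L and WT hearts without pregnancy. In S55L naive hearts 8 of the 10 genes fell, Hibch rose, and Hibadh did not pass the test. Their median log2 fold change was -1.30, against 0.00 over all 11945 genes tested. By edgeR's quasi-likelihood test, 43.5% of all genes tested passed an adjusted p of 0.05, 21.6% as lower and 21.9% as higher, so that a large part of the transcriptome differed between these libraries. In these bulk samples fewer cells of a type and less RNA per cell cannot be told apart. The groups did not overlap for 9 of the 10 genes, against 32.2% of all genes tested.

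**Figure D1:**
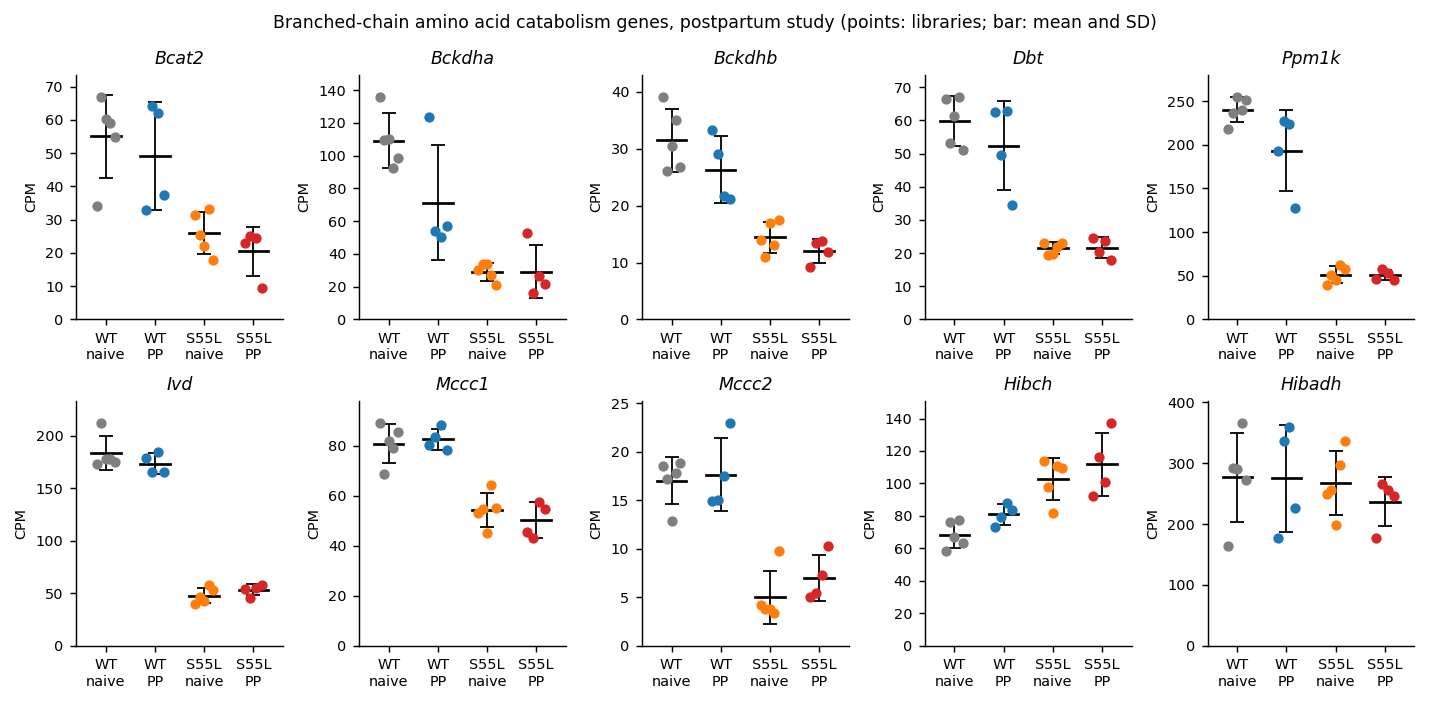
Level of each of the 10 genes in every library of the postpartum study, in CPM on a linear axis from 0, with points for libraries and bars for the mean and SD of each group (n = 5, 4, 5 and 4 from left to right). For Ppm1k, Ivd and Dbt every S55L library lies below every WT library, Hibch runs the other way, and the Hibadh groups overlap.

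Ppm1k (ENSMUSG00000037826), the phosphatase that activates the dehydrogenase, had the largest fall of the 10. Its level was 218, 236, 255, 239.8 and 252 CPM in the 5 WT naive libraries and 39.6, 50.6, 45.3, 62.8 and 58.0 CPM in the 5 S55L naive libraries. The highest S55L library was thus far below the lowest WT library. Means were 240.2 ± 14.6 and 51.3 ± 9.37 CPM (SD, n = 5 each), a 4.69-fold difference (log2 fold change -2.23, SE 0.16, edgeR adjusted p = 1.4e-11).

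Bckdha (ENSMUSG00000060376), the catalytic alpha subunit of the dehydrogenase, was at 136, 109, 110.0, 92.4 and 98.5 CPM in WT naive and at 30.4, 33.8, 33.9, 27.0 and 20.7 CPM in S55L naive libraries. The groups did not overlap, and the level was 3.75-fold lower in S55L (log2 fold change -1.90, SE 0.28, adjusted p = 2.5e-05, edgeR). Dbt (ENSMUSG00000000340), the acyltransferase core of the complex, was at 66.4, 53.1, 61.4, 67.1 and 51.0 CPM in WT naive and at 23.1, 19.5, 19.8, 21.9 and 23.1 CPM in S55L naive libraries. Dbt fell by 1.48 on the log2 scale (SE 0.16, adjusted p = 3.8e-08), again with no overlap. Bckdhb (ENSMUSG00000032263), the beta subunit, ranged from 26.1 to 39.1 CPM in WT naive and from 10.9 to 17.4 CPM in S55L naive libraries, and fell by 1.13 (SE 0.18, adjusted p = 1.8e-05). Bcat2 (ENSMUSG00000030826), the transaminase that opens the pathway, ranged from 34.0 to 66.9 CPM in WT naive and from 17.9 to 33.3 CPM in S55L naive libraries, and fell by 1.08 (SE 0.24, adjusted p = 0.0011). All 3 measured subunits specific to this complex and the transaminase were therefore lower in S55L naive hearts.

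The 3 leucine genes were also lower. Ivd (ENSMUSG00000027332), isovaleryl-CoA dehydrogenase, the first enzyme specific to leucine, was at 174, 212, 178, 178 and 176 CPM in WT naive and at 39.4, 46.3, 42.4, 57.4 and 53.0 CPM in S55L naive libraries. It was 3.85-fold lower in S55L, with no overlap (log2 fold change -1.94, SE 0.13, adjusted p = 6.4e-12, edgeR). Mccc1 (ENSMUSG00000027709) and Mccc2 (ENSMUSG00000021646) encode both subunits of methylcrotonyl-CoA carboxylase, the next enzyme of leucine breakdown, and they moved by different amounts. Mccc1 ranged from 68.6 to 89.1 CPM in WT naive and from 45.0 to 64.2 CPM in S55L naive libraries, a fall of 0.58 on the log2 scale (SE 0.13, adjusted p = 0.00081). Mccc2 ranged from 12.9 to 18.8 CPM in WT naive libraries and from 3.41 to 9.81 CPM in S55L naive libraries, a fall of 1.76 (SE 0.27, adjusted p = 8e-06). S55L naive 5 gave the highest of these Mccc2 values, and the other 4 S55L libraries lay at or below 4.17 CPM. The difference between the 2 subunits in their fall was not tested.

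The 2 valine genes did not follow the others. Hibch (ENSMUSG00000041426), 3-hydroxyisobutyryl-CoA hydrolase, an enzyme of valine breakdown, was at 58.2, 75.9, 67.3, 77.4 and 63.3 CPM in WT naive and at 114, 97.6, 82.1, 111 and 109 CPM in S55L naive libraries. Every S55L naive library was above every WT naive library, and the level was 1.50-fold higher (log2 fold change 0.59, SE 0.14, adjusted p = 0.0012, edgeR). Hibadh (ENSMUSG00000029776), the dehydrogenase of the next step, was at 163, 291, 291, 366 and 272 CPM in WT naive and at 249.8, 255, 199, 298 and 336 CPM in S55L naive libraries. These groups overlapped, and the difference of -0.05 had a 95% interval from -0.46 to 0.36 (adjusted p = 0.86).

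The second comparison asks the same between genotypes on postpartum day 0, and gave the same directions. In S55L PP hearts 8 of the 10 genes fell, Hibch rose and Hibadh did not pass, with a median log2 fold change of -1.25 against 0.00 over all genes tested. In this comparison 31.5% of all genes passed the test, 15.2% as lower and 16.3% as higher. The groups did not overlap for 8 of the 10 genes, against 25.4% of all genes tested.

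Ppm1k was at 193, 228, 224 and 127 CPM in WT PP and at 46.7, 57.3, 53.6 and 45.2 CPM in S55L PP libraries. No S55L PP library reached the lowest WT PP library, and Ppm1k was 3.81-fold lower (log2 fold change -1.92, SE 0.18, adjusted p = 2.6e-09, edgeR). Ivd was at 179, 165, 185 and 165 CPM in WT PP and at 54.5, 45.6, 54.9 and 57.7 CPM in S55L PP libraries, 3.26-fold lower (log2 fold change -1.71, SE 0.15, adjusted p = 8.3e-10). For both genes the S55L PP values overlapped the S55L naive values.

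Of the dehydrogenase subunits, Dbt was at 62.4, 49.7, 62.8 and 34.4 CPM in WT PP and at 24.6, 20.2, 23.7 and 17.8 CPM in S55L PP libraries (log2 fold change -1.27, SE 0.18, adjusted p = 4.2e-06). Bckdhb ranged from 21.2 to 33.4 CPM in WT PP and from 9.22 to 13.7 CPM in S55L PP libraries (log2 fold change -1.12, SE 0.21, adjusted p = 0.00015). Bckdha was the one gene called lower whose groups overlapped: it was at 124, 54.1, 50.1 and 57.0 CPM in WT PP and at 52.8, 16.0, 26.4 and 21.5 CPM in S55L PP libraries. Within each genotype the library numbered 1 was well above the others, and the log2 fold change was -1.31 (SE 0.32, adjusted p = 0.0038, edgeR). Without WT naive 1, WT PP 1 and S55L PP 1, the Bckdha difference was -1.36 (adjusted p = 7.8e-06), and the counts of 8 lower and 1 higher stood in both genotype comparisons, with medians of -1.33 and -1.28. Of all genes tested without these libraries, 42.2% passed between naive groups and 30.5% between PP groups.

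Bcat2 ranged from 33.0 to 64.2 CPM in WT PP libraries and was at 22.9, 24.9, 24.5 and 9.35 CPM in S55L PP libraries (log2 fold change -1.23, SE 0.28, adjusted p = 0.0015, edgeR). Mccc1 ranged from 78.5 to 88.2 CPM in WT PP and from 43.1 to 57.6 CPM in S55L PP libraries (log2 fold change -0.72, SE 0.15, adjusted p = 0.0004). Mccc2 ranged from 14.9 to 22.9 CPM in WT PP and from 5.03 to 10.3 CPM in S55L PP libraries (log2 fold change -1.35, SE 0.29, adjusted p = 0.00071). None of these 3 genes had overlapping groups.

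Hibch was at 72.9, 79.3, 88.2 and 83.9 CPM in WT PP and at 92.5, 116, 101 and 137 CPM in S55L PP libraries. Every S55L PP library was higher than every WT PP library, and the difference was 0.46 (SE 0.15, adjusted p = 0.020, edgeR). This call was the least stable of the 9: it was lost when only the compared groups were fitted (adjusted p = 0.071) and without WT PP 1 (0.061), S55L PP 3 (0.051) or S55L PP 5 (0.086), with the same sign each time. Hibadh was at 177, 336, 360.0 and 227 CPM in WT PP and at 177, 266, 256 and 247 CPM in S55L PP libraries, which overlapped (log2 fold change -0.21, 95% interval -0.67 to 0.25, adjusted p = 0.50). The library numbered 1 was the lowest in Hibadh within both PP groups and within WT naive, and was also highest in reads outside genes there, and the part of that share in the Hibadh values was not tested.

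**Figure D2:**
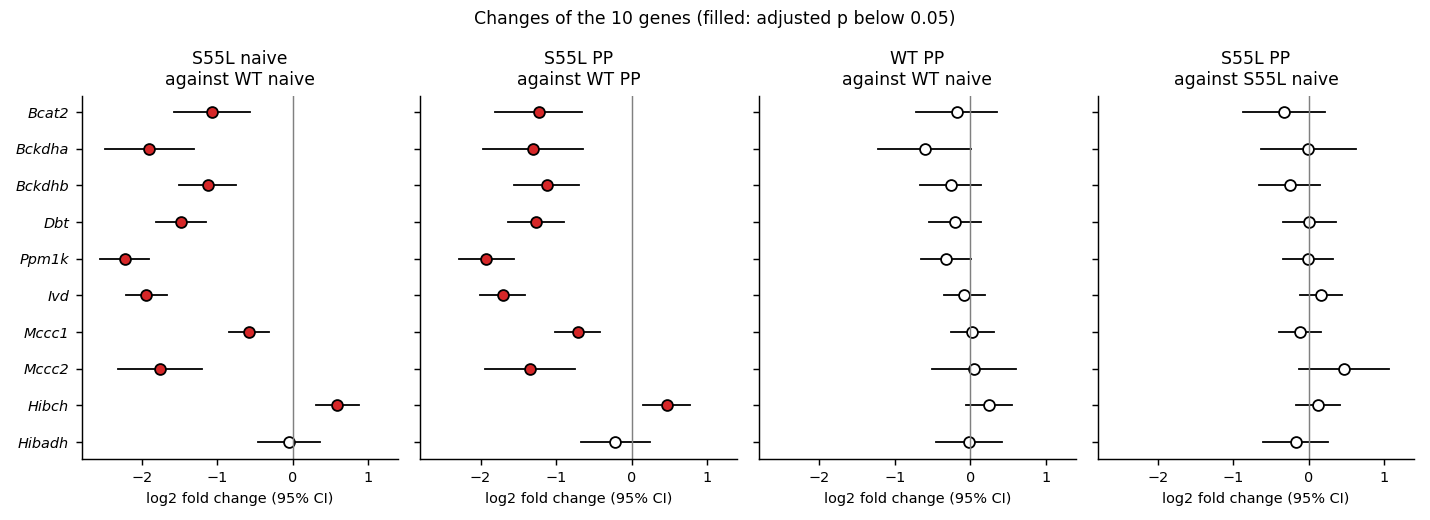
Log2 fold changes of the 10 genes with 95% confidence intervals in the 4 comparisons of 2 groups within the postpartum study, with filled points for an adjusted p below 0.05. Both genotype comparisons show 8 filled points below 0 and Hibch above 0, and both postpartum comparisons show no filled point.

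Library position on the plate, read from the column names, was nearly the same split as genotype. Plate column 1 held only WT libraries, column 3 only S55L libraries, and column 2 held 1 WT library, WT PP 1, beside 6 S55L libraries, so no column allowed a comparison with replicates of both genotypes. Within column 2, WT PP 1 had 193 CPM of Ppm1k and 179 CPM of Ivd, and S55L PP 5 had 45.2 and 57.7 CPM. With the plate column as a term, 7 of the 9 calls stood in each comparison, with all 7 in the same direction. In that fit both genotype differences rested on WT PP 1, the 1 WT library outside column 1. The PP difference rested also on S55L PP 5, the 1 S55L PP library in column 2. Bckdha, which was high in WT PP 1, went to -3.10 and -2.52. Bcat2 (-0.37, adjusted p = 0.53) and Mccc1 (-0.52, adjusted p = 0.15) were lost between naive groups, and Mccc1 (-0.55, adjusted p = 0.18) and Mccc2 (-0.53, adjusted p = 0.53) between PP groups. Under that fit 24.1% and 17.6% of all genes tested passed.

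The scaling of libraries also bears on the direction of small changes. When total counts replaced the trimmed means used for scaling, the median of all genes shifted to 0.24 and 0.27, and the share of calls that were higher went from 50.3% to 73.0% between naive groups and from 51.8% to 78.0% between PP groups. The 10 genes still gave 8 lower and 1 higher in both, with medians of -1.06 and -0.97, where 46.0% and 37.1% of all genes passed. Hibadh changed sign under that scaling, to 0.22 and 0.08, without passing the test. It changed sign further with the plate column as a term, to 0.75 (SE 0.40) and 0.48 (SE 0.42), again without passing. The first of these lay above the interval given earlier for the naive groups.

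Cell type markers differed between the genotypes as well. Of 8 cardiomyocyte markers (Myh6, Tnnt2, Tnni3, Actc1, Myl2, Ryr2, Pln and Tnnc1), 7 fell between naive groups and 6 between PP groups, with medians of -1.06 and -1.05. The remaining 1 (at 0.14) and 2 did not pass the test. Their summed level in WT libraries was 57124 to 74974 CPM (naive) and 57128 to 72782 CPM (PP), and in S55L libraries 37589 to 50233 CPM (naive) and 30325 to 39383 CPM (PP). All 8 macrophage markers rose between naive groups and 7 of 8 between PP groups, with summed levels of 149 to 193 and 201 to 315 CPM in WT and of 639 to 923 and 657 to 939 CPM in S55L libraries. Of 8 fibroblast markers, 5 and 6 rose. Of 8 mural cell markers, 6 fell and 1 rose between naive groups (median -0.77), and 4 fell and 1 rose between PP groups (median -0.66), while their summed level was higher in S55L libraries (1732 to 3681 and 1599 to 2266 CPM) than in WT libraries (842 to 1058 and 725 to 1025 CPM). Of 8 endothelial markers 3 and 2 fell and none rose, with medians of -0.32 and -0.38. Of 5 erythroid markers tested, 3 fell between naive groups and none passed between PP groups. Of 3 adipocyte markers tested, 2 and 1 fell. The part of cell composition in the falls of the 10 genes was not tested.

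The rest of the pathway was read from a list of 22 further genes, of which 20 were tested. Between naive groups 10 fell and 3 rose (median -0.34), and between PP groups again 10 fell and 3 rose (median -0.46). Over all genes tested 43.5% and 31.5% passed. These counts depended on the fit: with the plate column as a term 4 fell and 1 rose between naive groups and 2 fell and 1 rose between PP groups. Of the 20 genes, 5 and 3 were thus called, near the 24.1% and 17.6% of all genes that passed in that fit. Between PP groups 4 fell and 3 rose under total counts, where 37.1% of all genes passed. When only the compared groups were fitted, 6 fell and 1 rose of 19 tested. In both comparisons the lowest adjusted p among enzymes outside the 10 genes belonged to Mmut, Aldh6a1 and Mcee. Aldh6a1, the last enzyme of valine breakdown, was at 89.5 ± 17.6 CPM in WT naive and 44.4 ± 4.86 in S55L naive libraries (n = 5 each), and fell by 1.02 (adjusted p = 1.2e-06, edgeR) and, between PP groups, by 1.27 (adjusted p = 3.4e-07). Mmut and Mcee, the mutase and epimerase that feed propionyl-CoA carbon into the citric acid cycle, fell by 1.05 (adjusted p = 1.2e-07) and 0.96 (adjusted p = 3.2e-05) between naive groups and by 0.89 (adjusted p = 1.3e-05) and 1.0 (adjusted p = 9.2e-05) between PP groups. With the plate column as a term both Mcee calls were lost (-0.77, adjusted p = 0.062, and -0.48, adjusted p = 0.33). Valine genes thus went both ways, with Hibch higher and Aldh6a1 lower in S55L hearts.

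Acadsb, the short/branched-chain acyl-CoA dehydrogenase of isoleucine breakdown, did not pass the test between naive groups (0.08, adjusted p = 0.74) or between PP groups (-0.32, adjusted p = 0.21). Same-numbered PP libraries deviated together, and in the fit with the replicate number as a block its PP difference was -0.35 (adjusted p = 0.043). Bcat1, the cytosolic transaminase, was too low to be tested, with 3 reads in all over each WT group, 31 over S55L naive and 29 over S55L PP libraries.

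The 3 genes that rose in both comparisons were all transport genes, of which 2 lost their calls with the plate term. Slc25a44, the mitochondrial carrier of branched-chain amino acids, rose from 29.4 ± 3.86 to 48.4 ± 6.10 CPM between naive groups (n = 5 each; log2 fold change 0.72, adjusted p = 0.00026, edgeR) and from 33.2 ± 3.93 to 46.2 ± 4.91 CPM between PP groups (n = 4 each; 0.49, adjusted p = 0.020). Its naive groups and its PP groups did not overlap. Both calls were lost with the plate column as a term (0.78, adjusted p = 0.063, and 0.40, adjusted p = 0.40). The PP call was also lost when only the compared groups were fitted (adjusted p = 0.068) and without WT PP 5 (0.063) or S55L PP 3 (0.080). Slc3a2, the heavy chain of cell-surface amino acid exchangers, rose by 2.38 (adjusted p = 2.9e-09) and 2.01 (adjusted p = 3.2e-07). Slc7a5, a light chain that pairs with it, had 1 read in all over the 5 WT naive libraries and 127 over the 5 S55L naive libraries, and 6 and 59 reads over the PP groups. It passed the test as higher in both comparisons (adjusted p = 2.7e-06 and 0.0016), and in neither with the plate column as a term (3.08, adjusted p = 0.18, and 0.36, adjusted p = 0.84).

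**Figure D3:**
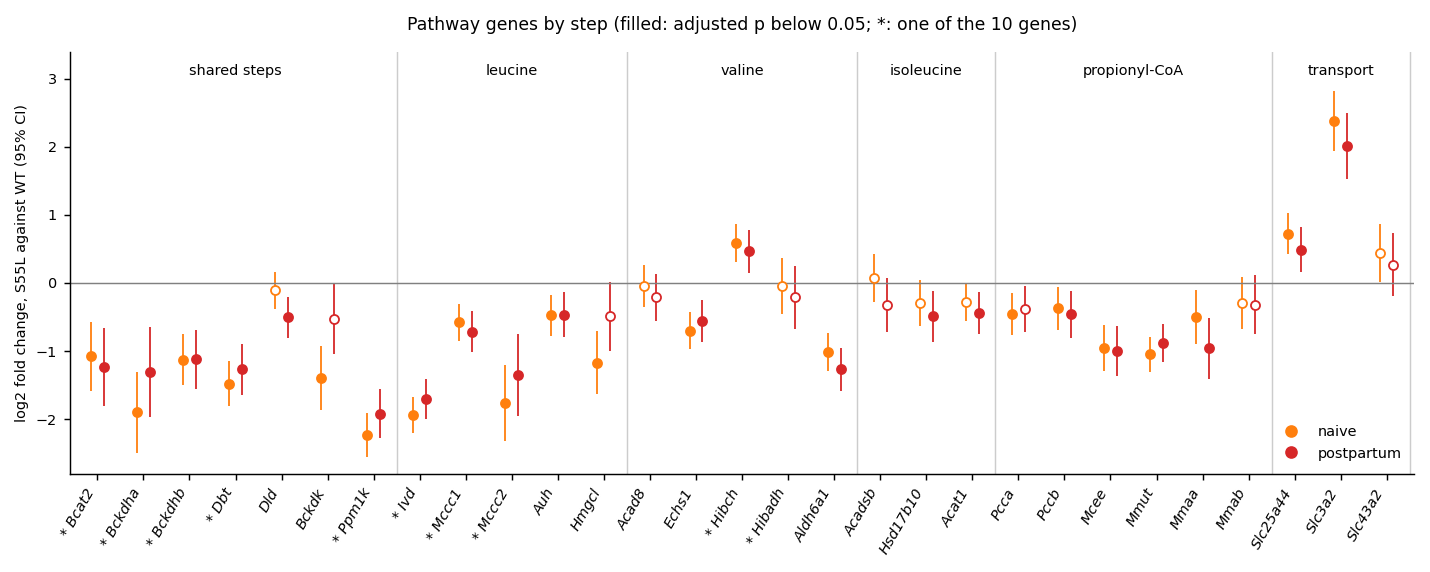
Log2 fold changes of S55L against WT with 95% confidence intervals for pathway genes ordered by step, between naive groups (orange) and between PP groups (red), with filled points for an adjusted p below 0.05 and an asterisk before each of the 10 genes. Slc7a5, whose WT libraries hold almost no reads, is not drawn. The shared and leucine steps lie mostly below 0, the valine step is split, and Slc25a44 and Slc3a2 lie above 0.

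The dehydrogenase is set by its kinase as well as by its phosphatase. Bckdk, the kinase, was at 130.3, 131, 123, 121 and 107 CPM in WT naive and at 49.6, 54.0, 54.4, 45.2 and 28.8 CPM in S55L naive libraries. It fell by 1.40 (SE 0.23, adjusted p = 3.6e-05, edgeR), without overlap, as its opponent Ppm1k did. In the PP groups Bckdk was at 124, 70.3, 99.0 and 94.3 CPM in WT and at 122, 49.0, 52.8 and 47.7 CPM in S55L libraries. S55L PP 1 lay among the WT values, and the difference of -0.52 did not pass in the fit without a block (adjusted p = 0.12, edgeR). It passed without S55L PP 1 (-0.96, adjusted p = 0.00031) and with the replicate number as a block (-0.59, adjusted p = 0.020), and over all alternatives the adjusted p ran from 0.00031 to 0.52.

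The ratio of Bckdk to Ppm1k reads was computed within each library, with 0.5 reads added to each count, so that it does not depend on scaling. It was 0.597, 0.558, 0.485, 0.505 and 0.427 in WT naive and 1.25, 1.07, 1.20, 0.720 and 0.497 in S55L naive libraries, which overlapped. In the PP groups it was 0.644, 0.310, 0.443 and 0.741 in WT and 2.60, 0.855, 0.985 and 1.05 in S55L libraries, which did not overlap. The mean log2 ratio was higher in S55L by 0.81 between naive groups (exact permutation test, two-sided, p = 0.032) and by 1.29 between PP groups (exact permutation p = 0.029, the smallest that 4 against 4 allows). After adjustment over 5 comparisons both had p = 0.079 (exact permutation tests), so neither passed. With the other comparisons as they were, no larger difference between the PP groups could have passed, since their p was already the smallest possible. For the PP ratio the adjusted test therefore decides nothing. The naive difference passed when S55L naive 5 was left out (1.02, adjusted p = 0.040, exact permutation test).

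The Hibch and Ivd genes, which moved in opposite directions, gave a ratio of reads of 0.336 to 0.436 (naive) and 0.408 to 0.508 (PP) in WT libraries, and of 1.93 to 2.88 (naive) and 1.70 to 2.55 (PP) in S55L libraries. In the diet study, which was counted apart, the ratio was 0.163 to 0.226 on the control diet and 0.0886 to 0.305 on the EH301 diet. These S55L libraries thus lay below every WT library of the postpartum study, and the studies were not compared by a test. This pair was chosen after the values were seen, and the ratio is given as a description.

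**Figure D4:**
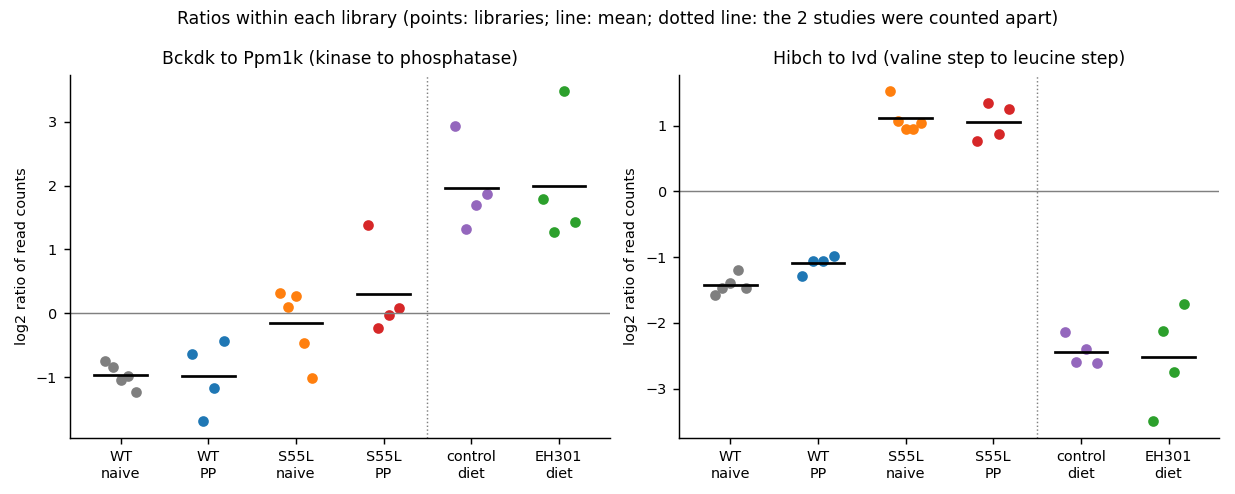
Log2 ratios of read counts within each library, Bckdk to Ppm1k on the left and Hibch to Ivd on the right, with a point for each library and a line at each group's mean. The Hibch to Ivd ratio lies above 0 in all 9 S55L libraries of the postpartum study and below 0 in all 9 WT libraries, while the Bckdk to Ppm1k ratios of the naive groups overlap. In the diet study, counted apart, the Hibch to Ivd ratio lies below 0 in every S55L library.

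Regulators known to act on the pathway or on mitochondrial fuel genes also differed. Klf15, a Kruppel-like factor that induces branched-chain amino acid catabolism, was at 29.8 ± 9.88 CPM in WT naive and 12.7 ± 4.68 in S55L naive libraries (n = 5 each), and fell by 1.21 (adjusted p = 0.0011, edgeR). Between PP groups Klf15 fell by 1.50 (adjusted p = 0.00053). With the plate column as a term neither Klf15 difference passed (-1.21, adjusted p = 0.065, and -0.73, adjusted p = 0.34). Ppargc1a, a coactivator of mitochondrial genes, fell by 0.60 (adjusted p = 0.0021) and 1.06 (adjusted p = 2.2e-05), the first of which was lost under total counts (-0.36, adjusted p = 0.068). Atf4, which drives the integrated stress response, rose by 2.68 (adjusted p = 1.6e-11) and 2.02 (adjusted p = 1.8e-08). Over the 7 regulators listed, 6 fell and 1 rose between naive groups, and 5 fell and 1 rose between PP groups.

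The neighbouring mitochondrial pathways give a measure of size. Of 21 fatty acid oxidation genes tested, 17 fell and 1 rose in each genotype comparison, with medians of -0.93 and -0.78. Of 17 citric acid cycle genes, 9 fell between naive groups and 11 between PP groups and none rose, with medians of -0.38 and -0.47. The medians of the 10 branched-chain genes, -1.30 and -1.25, were lower than these, but the 10 were chosen with earlier results of these data known. The 20 further genes of the same pathway had medians of -0.34 and -0.46, above those of fatty acid oxidation and close to those of the citric acid cycle. Differences between lists were not tested.

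The comparison of WT PP with WT naive hearts asks what pregnancy changes in the pathway without the mutation. None of the 10 genes passed the test, none reached an unadjusted p of 0.05, and their median was -0.13. No gene of the 10 had groups without overlap, against 1.88% of all genes. Over all genes 2 passed, 0.0167% of those tested, and 12 passed with DESeq2. Bckdha and Ppm1k had the lowest unadjusted p of the 10 (0.055 and 0.057, edgeR). For Bckdha, 3 of the 4 WT PP libraries, at 50.1 to 57.0 CPM, lay below all WT naive libraries, at 92.4 to 136 CPM, and WT PP 1 lay among them at 124 CPM. Its difference was -0.60 (SE 0.30, adjusted p = 0.77, edgeR). Without the doubly deposited libraries WT PP 1 and S55L PP 1 it was -1.01 (adjusted p = 0.012), and without those and WT naive 1 it was -0.90 (adjusted p = 0.033), the 1 gene of the 10 then called. Ppm1k had a difference of -0.32 with an interval from -0.65 to 0.01, and the remaining 8 genes had differences from -0.26 to 0.25. Outside the 10, Bckdk (-0.33), Aldh6a1 (0.10), Acadsb (-0.10), Slc25a44 (0.17), Klf15 (0.19), Ppargc1a (0.07) and Atf4 (0.45) did not pass either.

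The comparison of S55L PP with S55L naive hearts asks the same in mutant hearts. Again none of the 10 genes passed or reached an unadjusted p of 0.05, with a median of -0.01 and differences from -0.33 for Bcat2 to 0.46 for Mccc2. Plate position nearly followed this split too: S55L naive libraries lay in column 2, and S55L PP libraries in column 3 except S55L PP 5 in column 2. With the plate column as a term, a fit in which this difference rests on S55L PP 5, Bcat2 went to -1.46 and Mccc2 to 1.03. The part of plate position in these differences was not tested. The groups overlapped for each of the 10, while 2.25% of all genes had no overlap. No gene of the 11945 passed (0%) with edgeR, where 747 had an unadjusted p below 0.05, and 18 passed with DESeq2 and 22 with limma voom. The narrowest intervals belonged to Ivd (-0.12 to 0.44), Mccc1 (-0.39 to 0.17) and Hibch (-0.17 to 0.41), and the widest to Bckdha (-0.64 to 0.62). Bckdk had a difference of 0.54 (unadjusted p = 0.031, adjusted p = 0.75), with S55L PP 1 at 122 CPM and the other 3 S55L PP libraries within the range of 28.8 to 54.4 CPM seen in S55L naive libraries. Aldh6a1 (-0.15), Acadsb (-0.50), Slc25a44 (-0.07), Klf15 (-0.10), Ppargc1a (-0.38) and Atf4 (-0.22) did not pass.

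Whether the genotype difference itself changed with pregnancy was tested as an interaction. None of the 10 genes passed (0% of all genes did with edgeR, 444 genes had an unadjusted p below 0.05, and 1 passed with DESeq2). Interaction estimates ran from -0.16 for Hibadh to 0.59 for Bckdha, whose interval was -0.29 to 1.48. With the plate column as a term, the estimates ran from -1.45 for Bcat2 to 0.90 for Mccc2. The estimates of that fit rested on the only S55L PP library in the plate column of the S55L naive libraries. The part of plate position in the interaction was not tested. For the 8 genes that fell, the mean of each WT group lay above the mean of each S55L group, and within a genotype no difference between PP and naive groups passed the test. Of the genes outside the 10, Bckdk had an interaction estimate of 0.88 (unadjusted p = 0.016, adjusted p = 0.997, edgeR) and Atf4 one of -0.67 (unadjusted p = 0.021, adjusted p = 0.997).

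Over the 18 libraries the genes that fell moved together, with the closest pairs being Ppm1k with Ivd (Pearson r = 0.97) and Ppm1k with Dbt (0.96), and the loosest pair Bcat2 with Mccc2 (0.53). Hibch correlated negatively with each of the 8, from -0.61 with Mccc2 to -0.91 with Bckdha, and Hibadh had coefficients between -0.20 and 0.40. These points share genotype, depth and plate position, so the coefficients describe these libraries. Outside the lists, the 6 genes with at least 5 CPM whose log2 CPM was most like the mean of the 10 scaled genes were Rpl3l (0.98), Syt7 (0.98), Pfkm (0.98), Pkd2l2 (0.98), Gm28661 (0.98) and Pdp2 (0.97), over the same 18 libraries. Rpl3l is a ribosomal protein of heart and skeletal muscle, Pfkm the muscle phosphofructokinase, and Pdp2 the phosphatase that activates pyruvate dehydrogenase.

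The diet study asks whether EH301 during breeding changed the S55L PP heart. The control diet libraries used lay in plate columns 1 and 2 and the EH301 libraries used in column 3. Diet and plate column therefore cannot be told apart. None of the 10 genes passed the test (0% of the 10335 genes tested did with edgeR, 137 had an unadjusted p below 0.05, and 0 passed with DESeq2 and 1 with limma voom). No gene of the 10 had groups that did not overlap, which 1.50% of all genes had. The median difference was 0.05, and single differences ran from -0.25 for Ppm1k to 0.28 for Bckdha.

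Ppm1k was at 8.90, 20.4, 15.6 and 13.9 CPM on the control diet and at 16.6, 4.86, 14.3 and 14.1 CPM on the EH301 diet. The lowest value of each group belonged to its shallowest library, with 4 and 5 reads, and the interval of the difference ran from -0.95 to 0.46. Ivd was at 33.4, 49.1, 40.9 and 40.1 CPM on the control diet and at 42.9, 41.8, 41.1 and 43.9 CPM on the EH301 diet. The EH301 values lay within the range of the control values, and the interval of -0.41 to 0.47 was the narrowest of the 10.

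Bckdha was at 51.2, 31.7, 24.3 and 27.8 CPM on the control diet and at 29.1, 37.9, 38.9 and 48.4 CPM on the EH301 diet, which overlapped, with an interval of -0.31 to 0.86. Hibch was at 6.67, 7.93, 7.65 and 6.38 CPM on the control diet and at 9.69, 5.84, 12.4 and 3.72 CPM on the EH301 diet. The EH301 libraries thus spread on both sides of the control libraries, and the interval of -0.63 to 0.98 was the widest. The remaining genes had differences of 0.12 for Bcat2, 0.10 for Bckdhb, 0.07 for Dbt, -0.11 for Mccc1, -0.20 for Mccc2 and 0.01 for Hibadh. Mccc2 had 1 read in control diet 1 and 3 reads in EH301 diet 8, and 18 to 21 in the other libraries.

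**Figure D5:**
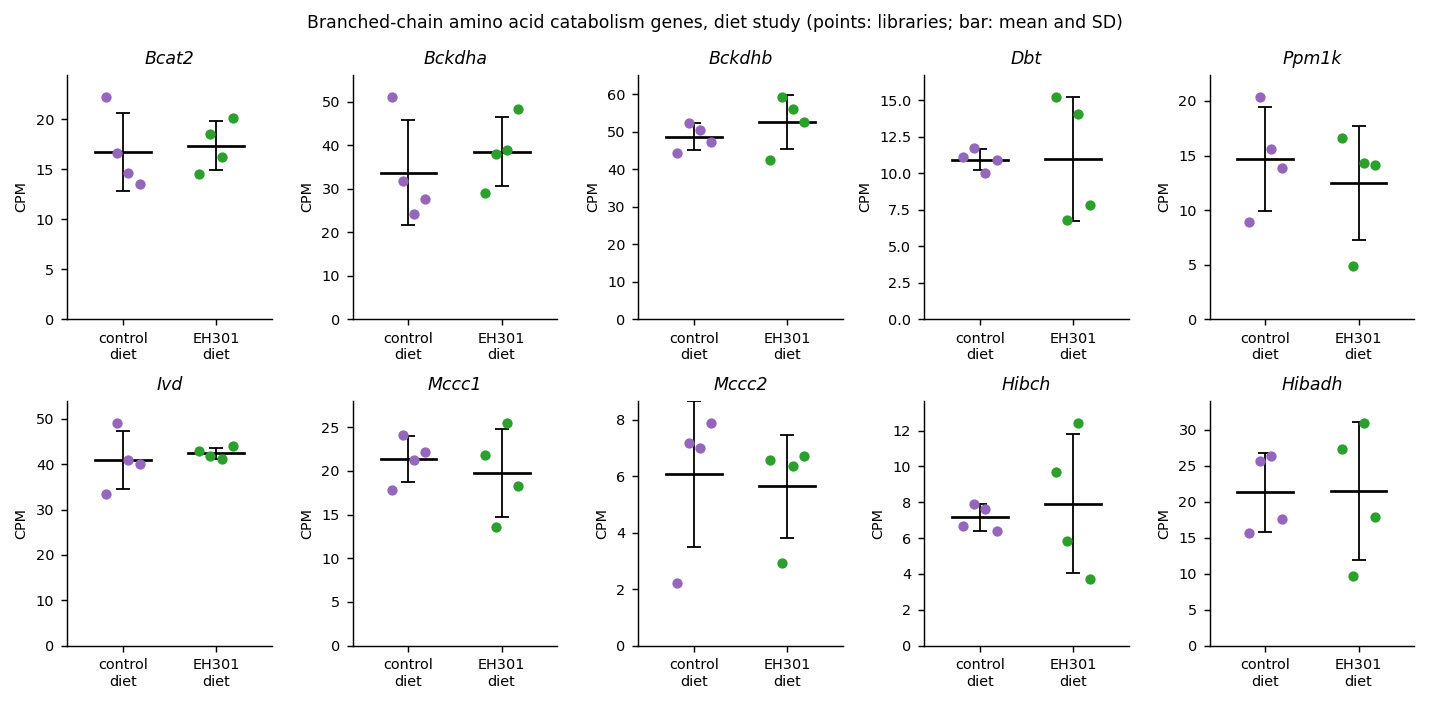
Level of each of the 10 genes in every library of the diet study, in CPM on a linear axis from 0, with points for libraries and bars for the mean and SD (n = 4 per diet). The groups overlap for all 10 genes.

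Bckdk was at 75.6, 51.3, 51.2 and 51.4 CPM on the control diet and at 40.5, 59.4, 38.9 and 49.5 CPM on the EH301 diet (-0.27, interval -0.78 to 0.24, edgeR adjusted p = 1). The mean log2 ratio of Bckdk to Ppm1k was 1.96 ± 0.69 and 2.0 ± 1.02 (SD, n = 4 each; exact permutation p = 0.89, two-sided). Aldh6a1 (-0.55), Acadsb (-0.13), Slc25a44 (-0.15), Bcat1 (-0.08), Ppargc1a (-0.10) and Atf4 (-0.07) did not pass, and neither did any of the 20 further pathway genes tested. Klf15 was not tested there, with 18 reads in all on the control diet and 7 on the EH301 diet. Without control diet 1 and EH301 diet 8, again none of the 10 genes passed, with a median of 0.06 and Bckdha at 0.46 (adjusted p = 0.996). Skeletal muscle markers summed to 588 to 3508 CPM on the control diet and 727 to 1444 CPM on the EH301 diet. Of the 7 tested, 6 were lower on the EH301 diet (median -1.44). Erythroid markers summed to 1088 to 20674 and 1503 to 6841 CPM, and all 5 tested were lower on the EH301 diet (median -0.92). None of these markers passed or reached an unadjusted p of 0.05 (edgeR). The part of both marker lists in these values was not tested.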

How the data were processed

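Hearts were profiled by 3' end sequencing (Lexogen QuantSeq 3' mRNA FWD), which reads the end of each transcript, so counts are not scaled to gene length. The authors deposited raw read counts per gene for each study. Per the submitters' processing notes, the tools were Trimmomatic 0.39, STAR 2.7.0f, HTSeq 0.6.1 and DESeq2 3.21, with build GRCm39.p6. Symbols were matched by Ensembl identifier for 51487 of 78258 and 52073 of 56691 genes.

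Genes passing filterByExpr were tested with edgeR 4.0.16 (quasi-likelihood test, trimmed-mean scaling, Benjamini-Hochberg adjustment over all 11945 or 10335 genes, threshold 0.05), with the 4 postpartum groups in 1 fit and the diets in another. CPM used the same scaled library sizes. Ratios were compared by exact permutation. The edgeR script was tested on simulated data in which 200 genes were changed, as many up as down. Such data do not test the scaling where 43.5% of genes passed, as between the naive groups. DESeq2 1.42.0 and limma 3.58.1 (R 4.3.3), other scalings, no filter, thinning, a plate term, a replicate block and leaving out libraries were alternatives.

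Same-numbered S55L PP and WT PP libraries deviated together (correlations 0.12 to 0.33 over 4 pairs). The PP values given as results nevertheless come from the fit without pairs, and the replicate number entered as a block only in an alternative. With that block the 10 genes again gave 8 lower and 1 higher between PP groups (median -1.26), where 34.5% of all genes passed. In the other postpartum comparisons at least 1 pair was at or below 0.1, and the diets share no numbers. The members and lists were chosen with earlier results of these data known. All 10 genes were named, with, of the other pathway genes, the 4 called with the lowest adjusted p per comparison and Bckdk, Bcat1, Aldh6a1, Acadsb and Slc25a44, 3 regulators, and the 6 genes most like the mean of the 10.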

Additional observations from a re-analysis of the deposited data

Results flagged for a closer look

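Among 66 groups of library values examined, 7 held a library far from the others of its group, where chance gives about 1 in 20. Bcat2 was at 9.35 CPM in S55L PP 5 against 22.9 to 24.9 CPM in the other S55L PP libraries. Bckdha was at 124 CPM in WT PP 1 against 50.1 to 57.0 CPM in the other WT PP libraries. Ivd was at 212 CPM in WT naive 2 against 174 to 178 CPM in the other WT naive libraries. Mccc2 stood apart in 4 groups. It was at 9.81 CPM in S55L naive 5 against 3.41 to 4.17 CPM in the others, and at 12.9 CPM in WT naive 3 against 17.1 to 18.8 CPM. In the diet study Mccc2 was at 2.22 CPM in control diet 1 against 6.99 to 7.88 CPM, and at 2.92 CPM in EH301 diet 8 against 6.37 to 6.70 CPM; these are the shallowest libraries, with 1 and 3 Mccc2 reads.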

How the results depend on the processing

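The 9 genes called between naive groups kept their sign in all 198 alternative values and those between PP groups in all 189, with 2 and 6 calls lost, as given beside the results. With each library left out in turn, 9 of the 10 genes were called between naive groups and 8 to 9 between PP groups. Without the libraries deposited under 2 numbers, and without the 3 libraries with the most reads outside genes, both chosen after seeing the data, 1 gene (Bckdha) was called between WT PP and WT naive groups. Over all genes 0.174% and 0.125% were called there. Mmaa changed sign between naive groups with the plate term (0.34, adjusted p = 0.52, against -0.49, edgeR); the cause was not tested. The plate term reduced the genes called over all genes from 5192 to 2873 and from 3767 to 2108. It could not be fitted in the diet study, where the libraries used of each diet shared no plate column. With no filter on low counts 21, 37 and 5 genes were called between WT PP and WT naive, between S55L PP and S55L naive and in the interaction. The replicate block changed the calls of Bckdk and Acadsb between PP groups and no other call of a named gene there. Leaving out each library moved the difference in the Bckdk to Ppm1k log2 ratio between 0.69 and 1.02 for naive groups, 0.93 and 1.47 for PP groups and -0.46 and 0.36 for diets. With the pairing of replicate numbers the ratio had exact permutation p = 0.062 and 0.12, the smallest those pairs allow. Thinned to the smallest library, the postpartum libraries gave 8 lower and 1 higher of the 10 genes in both genotype comparisons (medians -1.39 and -1.32). Of all genes tested after thinning, 39.9% and 28.7% passed. Depth limits Mccc2, Hibch and Ppm1k most in the diet study, where the shallowest library held 1, 3 and 4 reads of them.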

Other observations

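Some of the 10 genes stood at other levels in the control diet group than in the S55L PP group of the postpartum study, although both were S55L hearts on postpartum day 0. The tables were counted apart and the levels were not compared by a test. Hibadh was at 21.3 ± 5.48 CPM on the control diet and at 237 ± 40.4 CPM in the S55L PP group (SD, n = 4 each). Hibch was at 7.16 ± 0.749 and 112 ± 19.6 CPM, and Ppm1k at 14.7 ± 4.75 and 50.7 ± 5.72 CPM. Bckdhb went the other way, at 48.7 ± 3.54 and 12.1 ± 2.07 CPM, and Ivd was at 40.9 ± 6.43 and 53.2 ± 5.24 CPM.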
